A study of Mus musculus with 8 samples.

Results

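The matrix metalloproteinases, the ADAMTS proteases and the tissue inhibitors of metalloproteinases (TIMPs) were followed across mouse embryonic fibroblasts that carried 1 of 2 mutant forms of the transcription factor STAT5. Members were chosen by name: every probe set of the Affymetrix table whose platform annotation gave exactly 1 gene symbol made of Mmp, Adamts or Timp and a number. This gave 70 probe sets for 37 genes among the 45101 probe sets of the table, which named 18193 genes in this way. The Mmp family had 29 probe sets for 18 genes, the Adamts family had 28 for 15 genes and the Timp family had 13 for 4 genes.

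All cells came from C57BL/6 embryos, lacked Stat5, and had received a STAT5 mutant by retrovirus. In the EA form, the labels name the binding domain as the altered region, with EE to AA as the change. In the YF form, the tyrosine that is phosphorylated after cytokine or growth hormone signalling is replaced (Y694F). Cells of each form were left without stimulation or were given growth hormone for 120 minutes, which makes 4 groups: EA, EA_GH, YF and YF_GH. Each group had 2 arrays, called biological duplicates by the submitters. Cells with unaltered STAT5 and Stat5-null cells without a mutant were not analysed here, so a difference between EA and YF does not say which of them departed from cells with an intact protein. The labels do not say whether each mutant was studied in 1 clone or in a pool, and the mutant and the cell population that carries it cannot be told apart.

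Matrix metalloproteinases are zinc enzymes that cut collagens, gelatin, proteoglycans and many cell surface proteins, and they are made as inactive precursors that are secreted or held at the membrane. The ADAMTS proteases are secreted zinc enzymes with thrombospondin repeats. Some of them cut the large proteoglycans aggrecan and versican and others process procollagens or act on fibrillin microfibrils. TIMPs are small secreted proteins that block the active site of Mmp enzymes, and Timp3 also blocks some ADAMTS proteases. Fibroblasts are a main source of all 3 families in connective tissue.

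The authors deposited 1 expression value for each probe set and array, on the log2 scale. Probe sets differ in how brightly they hybridise, so each was compared only with itself. A gene is described by its brightest probe set unless another is named. Of all tested probe sets, 55% had a mean below 4 in a dense low group where the scale of a value is unknown, and a difference with a side below 4 has an uncertain size. Differences are EA minus YF or hormone minus none on the log2 scale, with the standard error (SE) of a limma model over all 8 arrays and a Benjamini-Hochberg adjusted p over 45037 probe sets. An adjusted p under 0.05 counts as passing. The replicates of each group correlated at 0.996 to 0.998 over all probe sets. The first principal component held 69.9% of the variance and separated the EA arrays from the YF arrays. The second held 12.6%, and the first YF_GH array stood apart on it. In a bulk culture, fewer cells of a type and less RNA per cell cannot be told apart.

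In these fibroblasts, 22 of the 37 genes were at or above 4 in every group. These were 9 Mmp genes, 9 Adamts genes and all 4 Timp genes. Another 13 genes were below 4 in every group: Mmp1a, Mmp1b, Mmp7, Mmp8, Mmp12, Mmp17 and Mmp20, and Adamts7, Adamts8, Adamts15, Adamts16, Adamts18 and Adamts19. They include enzymes known from other tissues, such as the neutrophil collagenase Mmp8, the macrophage elastase Mmp12 and the tooth enamel protease Mmp20. The array values of the brightest probe sets in this low set ran from 1.87 to 2.89 for the Mmp genes and from 1.89 to 2.67 for the Adamts genes. Mmp10 and Mmp13 were below 4 in some groups and above it in others. By probe set, 25 of 70 members (35.7%) were low in every group, against 53.4% of all probe sets.

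Many of these genes differed between the EA and YF cells. With the treatments averaged, 20 of the 37 genes passed, and 16 of them were lower in EA cells. The lower ones covered all 3 families: Mmp2, Mmp3, Mmp10, Mmp13, Mmp17 and Mmp23, then Adamts3, Adamts4, Adamts5, Adamts9, Adamts10, Adamts12 and Adamts20, and Timp1, Timp2 and Timp3. The 4 that passed in the other direction, higher in EA cells, were Mmp9, Mmp16, Mmp19 and Timp4. By probe set, 32 of 70 passed (45.7%), against a background of 16.5% of all probe sets. In this comparison 6 member probe sets were higher in EA cells, against 8.17% of all, and 26 were lower, against 8.38% of all. Of the probe sets with a mean at or above 4, 29 of 40 members passed (72.5%), against 33.8% of all. The median difference over the 70 was -0.11, and over all probe sets it was 0.02. The 4 EA arrays did not overlap the 4 YF arrays for 7 higher member probe sets (9.54% of all) and 23 lower ones (9.04% of all).

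Without hormone, 18 member probe sets passed, against 10.8% of all probe sets. In these arrays 3 were higher in EA cells (5.51% of all) and 15 were lower (5.25% of all). With hormone, 24 passed, against 10.2% of all, with 4 higher (4.37% of all) and 20 lower (5.8% of all). Leaving out the first YF_GH array, which stood apart, left 17 passing with hormone, and leaving out the second EA_GH array left 13. The difference between the treatments is tested directly as the difference of the hormone responses, given with the hormone results.

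**Figure D1:**
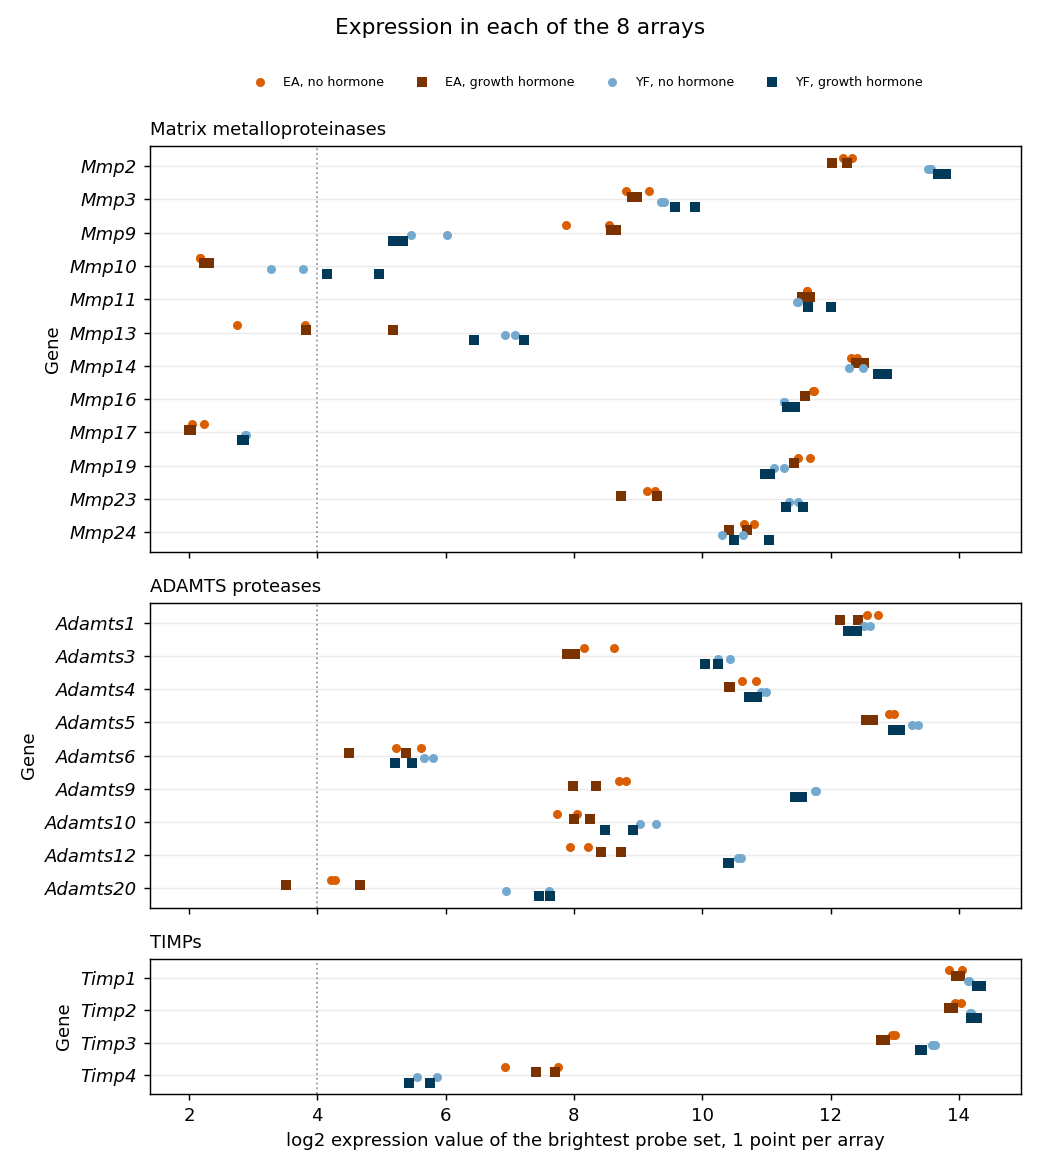
Log2 expression value of the brightest probe set (horizontal axis) of each Mmp, Adamts and Timp gene that was not low in every group or that passed in a comparison, with 1 point per array, coloured by mutant (orange and brown for EA, light and dark blue for YF) and shaped by treatment. The dotted line at 4 marks the bound of the low group, and the EA and YF points lie apart for genes such as Mmp9, Mmp23, Adamts9 and Adamts20.

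The gelatinases Mmp2 and Mmp9, which cut denatured collagen and basement membrane collagen, went in opposite directions. Mmp2 was 12.19 and 12.33 in EA, 12.26 and 12.02 in EA_GH, 13.52 and 13.57 in YF, and 13.80 and 13.68 in YF_GH. All 4 EA arrays lay below all 4 YF arrays. The difference was -1.44 (SE 0.07, adjusted p = 0.000294), which is 2.71-fold lower in EA cells. It was -1.28 without hormone and -1.59 with hormone. A second, dimmer Mmp2 probe set differed by -1.96 (SE 0.06, adjusted p = 6.41e-05).

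Mmp9 was 7.87 and 8.55 in EA, 8.66 and 8.58 in EA_GH, 5.46 and 6.02 in YF, and 5.18 and 5.33 in YF_GH. Its EA arrays were all higher than its YF arrays, with no overlap. The difference was 2.92 (SE 0.20, adjusted p = 0.000845), or 7.55-fold higher in EA cells, and it was 2.47 without hormone and 3.36 with it. Its other probe set lay partly in the low group: it was 2.41 and 4.53 in EA, 3.43 and 4.76 in EA_GH, and 2.26 to 2.35 in all 4 YF arrays. On that probe set the EA arrays were widely spread, and the difference was 1.48 (SE 0.55, adjusted p = 0.164), in the same direction and not passing.

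Mmp14, the membrane-bound enzyme that activates the Mmp2 precursor at the cell surface, did not pass between the mutants. Its values were 12.32 and 12.41 in EA, 12.52 and 12.40 in EA_GH, 12.50 and 12.28 in YF, and 12.88 and 12.74 in YF_GH. The EA and YF arrays overlapped without hormone, and with hormone both YF arrays were the higher ones. The averaged difference was -0.19 (SE 0.07, adjusted p = 0.152), with a 95% interval of -0.36 to -0.02. These intervals are for 1 gene at a time, so one that leaves out 0 can stand beside an adjusted p that does not pass. A dimmer Mmp14 probe set had means of 8.95 in EA, 9.06 in EA_GH, 8.69 in YF and 9.03 in YF_GH. Another had 6.67, 6.59, 6.14 and 7.08 in the same order. Both were higher in EA cells without hormone. With hormone the first was near level between the mutants and the second was lower in EA cells.

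Mmp3, Mmp10 and Mmp13 belong to a stretch of neighbouring Mmp genes on chromosome 9. Mmp3 and Mmp10 are stromelysins, which cut many matrix proteins and activate other Mmp precursors, and Mmp13 is a collagenase that cuts fibrillar collagen. In the RefSeq gene table (GRCm38.p6) the stretch runs Mmp13, Mmp12, Mmp1b, Mmp3, Mmp1a, Mmp10, Mmp8, Mmp27, Mmp20 and Mmp7, with 0 other protein-coding genes between the first and the last. Of these 10 genes, 9 were measured by a 1-symbol probe set, and 6 of the 9 were below 4 in every group. The remaining 3, Mmp3, Mmp10 and Mmp13, were the ones above the bound in some group. Mmp3 was above it in every group and Mmp13 in EA_GH, YF and YF_GH, and both were lower in EA cells. Mmp10 was above it in YF_GH alone, so its lower level in EA cells follows from how the 3 were picked. Their RefSeq promoter windows, from 250 bases before to 50 bases after the start, are shown because these were the neighbours above the bound in some group. All 3 are on the + strand, at chr9:7272264-7272563 for Mmp13, chr9:7445572-7445871 for Mmp3 and chr9:7502092-7502391 for Mmp10. Capitals mark matches to TGANTCA (the AP-1 motif), AGGAAG (an ETS motif) and TATAAA (the TATA box).
Mmp13: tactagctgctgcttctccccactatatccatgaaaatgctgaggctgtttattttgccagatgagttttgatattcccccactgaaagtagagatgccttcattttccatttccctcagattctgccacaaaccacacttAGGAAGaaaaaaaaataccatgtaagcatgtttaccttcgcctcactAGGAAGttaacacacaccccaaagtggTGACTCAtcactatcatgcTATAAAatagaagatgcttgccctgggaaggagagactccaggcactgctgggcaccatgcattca
Mmp3: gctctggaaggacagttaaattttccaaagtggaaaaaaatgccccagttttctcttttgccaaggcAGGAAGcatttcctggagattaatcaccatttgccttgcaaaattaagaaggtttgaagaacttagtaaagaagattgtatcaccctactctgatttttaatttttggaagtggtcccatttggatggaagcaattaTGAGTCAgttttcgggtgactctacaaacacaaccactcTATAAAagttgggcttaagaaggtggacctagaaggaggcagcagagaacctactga
Mmp10: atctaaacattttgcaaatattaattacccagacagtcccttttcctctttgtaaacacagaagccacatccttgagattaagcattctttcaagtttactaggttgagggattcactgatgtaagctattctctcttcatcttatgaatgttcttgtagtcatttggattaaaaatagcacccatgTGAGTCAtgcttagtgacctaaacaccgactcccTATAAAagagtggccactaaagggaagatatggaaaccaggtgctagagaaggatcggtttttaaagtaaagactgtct
Each of the 3 windows holds 1 AP-1 match, which begins 35 bases before the start in Mmp13, 46 before it in Mmp3 and 63 before it in Mmp10, and each holds 1 TATA match nearer to the start. The Mmp13 window also holds 2 ETS matches and the Mmp3 window 1. Motifs were searched on both strands, and TGANTCA reads as itself on the other strand. Of the 23 member genes with a window in the table, 8 (34.8%) hold the AP-1 letters, against 7.81% of all 32851 windows, where a gene counts if any of its windows holds the letters. All 8 lie in this chromosome 9 stretch, and they include genes that stayed in the low group in every array, such as Mmp1a, Mmp7 and Mmp20. TATA letters were in 43.5% of member genes with a window against 13.6% of all windows, ETS letters in 52.2% against 35.4%, and the STAT letters TTCNNNGAA in 4.35%, which is Mmp23 alone, against 8.3%. A match describes the letters in a window and is not a measured binding site.

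Mmp13 was 2.75 and 3.80 in EA, 3.83 and 5.18 in EA_GH, 7.08 and 6.93 in YF, and 6.44 and 7.23 in YF_GH. The 4 YF arrays stayed between 6.44 and 7.23 and all EA arrays lay below them, spread from 2.75 to 5.18. The difference was -3.03 (SE 0.41, adjusted p = 0.00764), with a side below 4 in EA cells. By treatment it was -3.73 without hormone and -2.33 with hormone (adjusted p = 0.0755). The call without hormone was lost without the first EA array or either YF array, at adjusted p-values of 0.0813 to 0.091.

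Mmp10 was 2.18 and 2.18 in EA, 2.23 and 2.32 in EA_GH, 3.27 and 3.78 in YF, and 4.15 and 4.96 in YF_GH. In EA cells it sat in the low group in all 4 arrays, and every YF array was higher, the YF_GH arrays most of all. The averaged difference was -1.82 (SE 0.21, adjusted p = 0.00445). It was -1.35 without hormone (adjusted p = 0.0513) and -2.28 with hormone (adjusted p = 0.0112). The call with hormone was lost without either EA_GH array, at adjusted p-values of 0.0574 and 0.0701. These sizes are uncertain, because the EA side and the YF side without hormone were below 4.

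Mmp3 was 8.81 and 9.17 in EA, 8.98 and 8.91 in EA_GH, 9.40 and 9.35 in YF, and 9.89 and 9.58 in YF_GH. Its EA arrays lay below its YF arrays by a small gap, since the highest EA array reached 9.17 and the lowest YF array was at 9.35. The difference was -0.58 (SE 0.11, adjusted p = 0.0206). This call was lost when either EA_GH array or either YF array was left out, at adjusted p-values of 0.0655 to 0.0809.

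Mmp23, a small membrane-anchored enzyme that lacks the usual cysteine switch, also had a large difference. Its values were 9.14 and 9.26 in EA, 9.29 and 8.73 in EA_GH, 11.35 and 11.50 in YF, and 11.57 and 11.30 in YF_GH. The 4 EA arrays were all lower, with the highest of them at 9.29 and the lowest YF array at 11.30. The difference was -2.33 (SE 0.14, adjusted p = 0.000623), or 5.02-fold lower in EA cells, at -2.23 without hormone and -2.43 with it. The other Mmp23 probe set differed by -3.10 (SE 0.24, adjusted p = 0.00131).

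Among the other membrane-type enzymes, Mmp16 was higher in EA cells by less. Mmp16 was 11.72 and 11.74 in EA, 11.60 and 11.60 in EA_GH, 11.27 and 11.27 in YF, and 11.44 and 11.31 in YF_GH. No EA array overlapped a YF array, and the difference was 0.34 (SE 0.03, adjusted p = 0.00268), which is 1.27-fold. Mmp17, a membrane-type enzyme held by a lipid anchor, was 2.05 and 2.23 in EA, 2.005 and 2.03 in EA_GH, 2.89 and 2.87 in YF, and 2.82 and 2.86 in YF_GH. All 8 values are in the low group, where every EA array was below every YF array. Its difference was -0.78 (SE 0.05, adjusted p = 0.000546), a call that stands on values of unknown scale. Mmp24, another membrane-type enzyme known from nerve cells, was 10.65 and 10.81 in EA, 10.69 and 10.42 in EA_GH, 10.63 and 10.31 in YF, and 11.04 and 10.49 in YF_GH. Its 4 EA arrays lay inside the range of its 4 YF arrays, and the difference was 0.02 (SE 0.16, adjusted p = 0.936), with a 95% interval of -0.38 to 0.42. The other Mmp24 probe sets, at 1.59 to 2.07, were in the low group in every array.

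Of the remaining secreted enzymes, Mmp19, which cuts basement membrane proteins, was 11.68 and 11.49 in EA, 11.43 and 11.43 in EA_GH, 11.27 and 11.11 in YF, and 10.97 and 11.06 in YF_GH. Its EA arrays were all above its YF arrays, by 0.40 (SE 0.06, adjusted p = 0.0111). Mmp11, a stromelysin-like enzyme that is activated inside the cell by furin, was 11.64 and 11.63 in EA, 11.67 and 11.55 in EA_GH, 11.50 and 11.47 in YF, and 12.01 and 11.65 in YF_GH. Its 4 EA arrays also lay inside the range of its YF arrays, and the difference was -0.04 (SE 0.08, adjusted p = 0.82), with a 95% interval of -0.25 to 0.18.

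**Figure D2:**
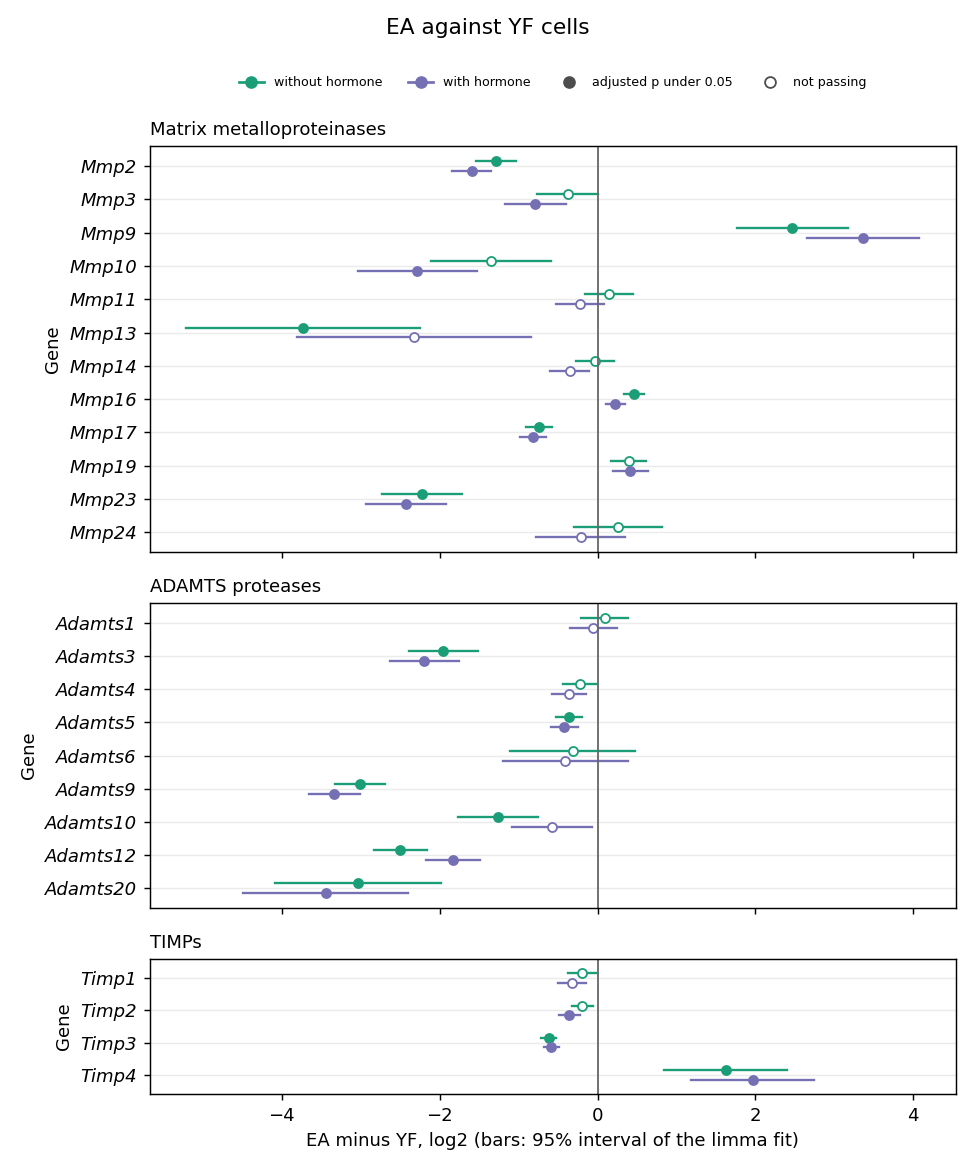
Difference EA minus YF (log2, horizontal axis) of the brightest probe set of each gene, without hormone (green) and with hormone (purple), with bars for the 95% interval of the limma fit and filled points for an adjusted p under 0.05. Adamts9, Adamts20, Adamts12, Adamts3, Mmp13, Mmp10, Mmp23 and Mmp2 lie well below 0 and Mmp9 and Timp4 lie well above it at both treatments.

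In the Adamts family, 7 of 15 genes passed and all 7 were lower in EA cells. Of all genes, 22.9% passed by their brightest probe set and 1918 of 18193 were lower. Of all genes with a mean at or above 4, 36.2% passed. Adamts1, Adamts4, Adamts5, Adamts9 and Adamts20 belong to the group that cuts aggrecan or versican. Adamts9 and Adamts20 had by far the larger differences of this group. Adamts9 was 8.70 and 8.81 in EA, 8.35 and 7.98 in EA_GH, 11.77 and 11.76 in YF, and 11.44 and 11.56 in YF_GH. The highest EA array, at 8.81, was far below the lowest YF array, at 11.44. The difference was -3.17 (SE 0.09, adjusted p = 5.87e-05), or 9.02-fold lower in EA cells, at -3.01 without hormone and -3.33 with hormone. The other Adamts9 probe sets lay at or near the low group, and neither passed.

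Adamts20, the versican-cutting enzyme mutated in the belted mouse, was 4.27 and 4.21 in EA, 3.52 and 4.67 in EA_GH, 7.60 and 6.94 in YF, and 7.45 and 7.62 in YF_GH. Its EA arrays were near the bound of 4 and its YF arrays were between 6.94 and 7.62, with no overlap. The difference was -3.24 (SE 0.29, adjusted p = 0.00197). It was -3.03 without hormone and -3.44 with it.

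Adamts5, the main aggrecan-cutting enzyme of mouse cartilage, was 12.92 and 12.99 in EA, 12.66 and 12.55 in EA_GH, 13.27 and 13.35 in YF, and 13.08 and 12.97 in YF_GH. The EA_GH arrays were the lowest, while EA without hormone overlapped YF_GH. The difference was -0.39 (SE 0.05, adjusted p = 0.00495), and 3 of its 4 probe sets passed in the same direction. Adamts4, also an aggrecanase, was 10.83 and 10.62 in EA, 10.42 and 10.43 in EA_GH, 10.91 and 11.00 in YF, and 10.85 and 10.73 in YF_GH. An EA array without hormone lay inside the range of the YF_GH arrays. Its difference of -0.30 (SE 0.06, adjusted p = 0.0273) was lost without the second EA array, either EA_GH array, either YF array or the first YF_GH array, at adjusted p-values of 0.0501 to 0.0941. Adamts1 was 12.57 and 12.74 in EA, 12.43 and 12.15 in EA_GH, 12.62 and 12.52 in YF, and 12.41 and 12.27 in YF_GH. Its arrays overlapped between the mutants, and the difference was 0.02 (SE 0.08, adjusted p = 0.9), with a 95% interval of -0.19 to 0.23.

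The other Adamts genes with a signal have different substrates. Adamts3, which removes the amino-terminal propeptide of procollagens and takes part in the maturation of the lymphatic growth factor VEGF-C, was 8.62 and 8.16 in EA, 7.90 and 8.01 in EA_GH, 10.25 and 10.44 in YF, and 10.04 and 10.25 in YF_GH. All EA arrays were lower than all YF arrays. The difference was -2.07 (SE 0.12, adjusted p = 0.000552), or 4.21-fold lower in EA cells, at -1.96 without hormone and -2.19 with it. Adamts12, an enzyme that cuts the cartilage matrix protein COMP, was 7.94 and 8.22 in EA, 8.42 and 8.74 in EA_GH, 10.55 and 10.60 in YF, and 10.40 and 10.42 in YF_GH. The EA arrays were again all lower, the unstimulated ones the lowest. The difference was -2.16 (SE 0.09, adjusted p = 0.000228), or 4.48-fold lower, at -2.50 without hormone and -1.83 with hormone.

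Adamts10 and Adamts6 are related enzymes that act on fibrillin microfibrils. Adamts10 was 8.05 and 7.74 in EA, 8.25 and 8.005 in EA_GH, 9.03 and 9.28 in YF, and 8.92 and 8.48 in YF_GH. Its EA arrays were all below its YF arrays, and the difference was -0.92 (SE 0.14, adjusted p = 0.0115). Without the second EA_GH array, the adjusted p was 0.0507. Adamts6 was 5.61 and 5.23 in EA, 4.50 and 5.38 in EA_GH, 5.67 and 5.80 in YF, and 5.22 and 5.48 in YF_GH. Its arrays overlapped, and the difference was -0.36 (SE 0.22, adjusted p = 0.46), with a 95% interval of -0.92 to 0.20.

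All 4 inhibitors passed between the mutants, against 22.9% of all genes and 36.2% of genes with a mean at or above 4. Of these inhibitors, 3 were lower in EA cells. Timp3, the inhibitor that stays bound to the matrix and blocks Adamts4 and Adamts5 as well as the Mmp enzymes, was 13.00 and 12.96 in EA, 12.85 and 12.79 in EA_GH, 13.62 and 13.58 in YF, and 13.39 and 13.42 in YF_GH. No EA array reached a YF array. The difference was -0.60 (SE 0.03, adjusted p = 0.000265), or 1.52-fold lower, and it was -0.62 without hormone and -0.58 with it. The other 3 Timp3 probe sets differed by -0.67, -0.56 and -0.72, and all of them passed.

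Timp2, which inhibits Mmp enzymes and also forms the complex in which Mmp14 activates the Mmp2 precursor, was 13.94 and 14.04 in EA, 13.90 and 13.85 in EA_GH, 14.18 and 14.18 in YF, and 14.28 and 14.19 in YF_GH. The EA arrays were all lower than the YF arrays, and the difference was -0.27 (SE 0.04, adjusted p = 0.00829). A second bright Timp2 probe set, at 13.91 and 14.01 in EA, 13.93 and 13.84 in EA_GH, 13.80 and 13.83 in YF, and 14.04 and 13.89 in YF_GH, showed overlap and a difference of 0.03 (SE 0.05, adjusted p = 0.73). The next probe set by level differed by -0.63 (SE 0.08, adjusted p = 0.00602), so the Timp2 probe sets do not give 1 size of difference.

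Timp1, a secreted inhibitor that also binds the Mmp9 precursor, was 13.85 and 14.04 in EA, 14.02 and 13.96 in EA_GH, 14.15 and 14.14 in YF, and 14.34 and 14.28 in YF_GH. The 8 values lie between 13.85 and 14.34 and the EA arrays were the lower ones, with a difference of -0.26 (SE 0.05, adjusted p = 0.024). This call was lost without the first YF_GH array, either EA_GH array or either YF array (adjusted p 0.0601 to 0.084), with arrays centred on their median (0.056), and with the replicate number as a block (0.0524). Timp4 was 6.92 and 7.76 in EA, 7.41 and 7.71 in EA_GH, 5.55 and 5.87 in YF, and 5.43 and 5.75 in YF_GH. It was the one inhibitor with all EA arrays above all YF arrays, by 1.80 (SE 0.22, adjusted p = 0.0051), or 3.48-fold. A dim second Timp4 probe set in the low group did not pass (0.27, adjusted p = 0.587).

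Of the 37 genes, 19 had more than 1 member probe set, and 2 of the 20 genes called on the brightest probe set had another whose averaged difference had the opposite sign. One was Timp2, described above. The other was Adamts12, whose dim probe set was in the low group and differed by 0.04 (SE 0.05, adjusted p = 0.692).

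**Figure D3:**
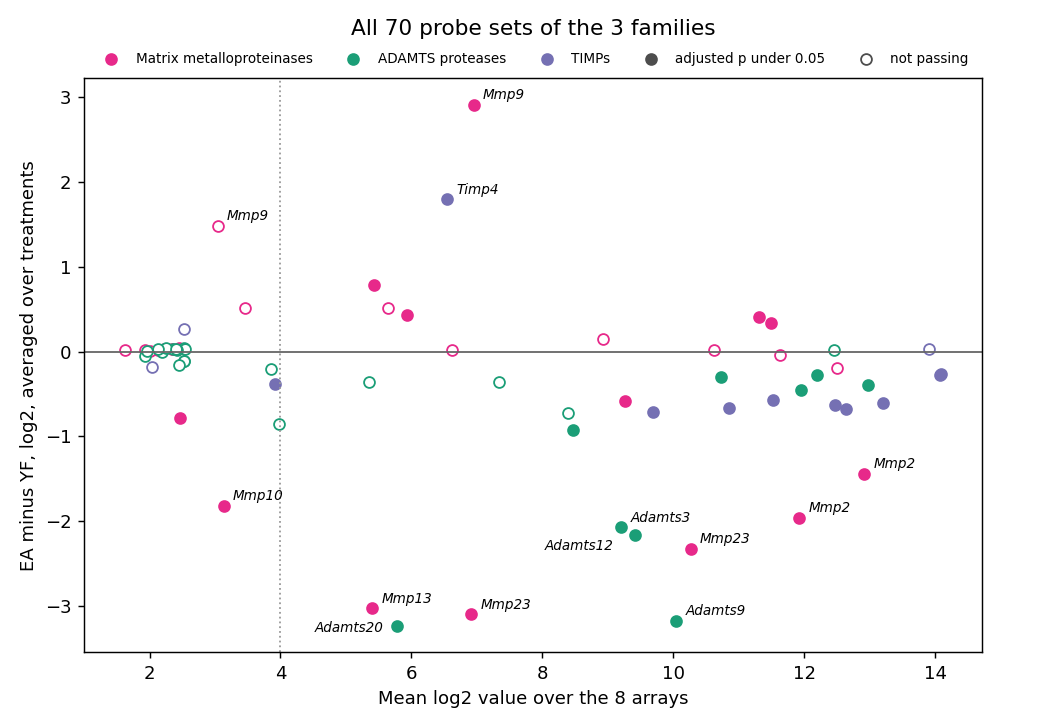
Each point is 1 of the 70 member probe sets, with its mean log2 value over the 8 arrays on the horizontal axis and its EA minus YF difference (log2, averaged over treatments) on the vertical axis, coloured by family and filled where the adjusted p was under 0.05. The filled points are mostly below 0 and to the right of the dotted bound at 4, and the labelled ones have a difference of more than 1 in size.

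A list of 53 other genes of pericellular proteolysis was read in the same fit, and 49 of them were measured. It holds ADAM proteases, ADAMTS-like proteins, the plasminogen activators, cathepsins, lysyl oxidases and related inhibitors and receptors. By the brightest probe set, 22.9% of all genes and 36.2% of genes with a mean at or above 4 passed with the treatments averaged. Of the 49, 22 passed (44.9%), 8 higher and 14 lower in EA cells. Leaving out the second EA array without hormone left 14. The median of the 49 was 0.003, and that of all probe sets was 0.02. Adam8, a membrane protease known from leukocytes and osteoclasts, was 10.09 and 10.08 in EA, 10.48 and 10.19 in EA_GH, 4.40 and 5.02 in YF, and 5.56 and 5.51 in YF_GH. It had the largest rise of the list, 5.09 (SE 0.15, adjusted p = 6.9e-05), and all EA arrays were far above all YF arrays. The next 4 rises were Adamtsl5 at 2.12, the cysteine protease inhibitor Cst6 at 1.42, Adamtsl4 at 1.28 and the lysyl oxidase Loxl3 at 1.06.

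Pcolce2, which enhances the removal of the carboxy-terminal propeptide of procollagen, was 5.14 and 5.57 in EA, 5.08 and 4.00 in EA_GH, 10.15 and 10.21 in YF, and 10.80 and 10.40 in YF_GH. It had the largest fall, -5.44 (SE 0.27, adjusted p = 0.000321), with no overlap. The next 4 falls were Adamtsl1 at -4.16, Adamtsl3 at -3.30, Adam12 at -2.56 and the procollagen protease Tll1 at -2.19. The ADAMTS-like proteins resemble ADAMTS proteases but lack the enzyme part, and those that passed went both ways.

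Markers of fibroblasts and of other cell types were read on the same arrays. Of 11 fibroblast markers, 9 were above 4 in every group, and the mean level of the 11 was 11.3 to 11.4 in the EA arrays and 12.3 to 12.4 in the YF arrays. Thy1 was 7.48 to 7.79 in EA arrays and 12.5 to 12.7 in YF arrays, and Dcn was 2.49 to 3.78 against 7.24 to 8.22. These had the largest differences of the 11. Col1a1, Fn1, S100a4 and Lum were lower by less in EA cells (-0.92 to -0.15), and Col1a2, Col3a1, Vim, Pdgfra and Pdgfrb did not pass (-0.02 to 0.28). The value of -0.92 is that of Lum, which was in the low group in every array, at 2.61 to 3.99. The mean of 5 smooth muscle markers was 7.39 to 7.61 in EA arrays and 9.37 to 9.62 in YF arrays. Myh11 was 2.29 to 2.35 in EA arrays and 6.22 to 7.35 in YF arrays, and Cnn1 was 5.26 to 5.90 against 10.21 to 10.52. Acta2 (14.16 to 14.34 against 14.55 to 14.70) and Tagln (12.83 to 13.29 against 13.33 to 13.96) differed by far less. Des was low in every group. The mean of 4 mesothelial markers was 5.61 to 5.83 in EA arrays and 4.10 to 4.42 in YF arrays. Msln and Krt19 were the mesothelial markers that were higher in EA arrays, and Wt1 was the one that was lower. Of 7 macrophage and leukocyte markers, 4 were low in every group, and the defining genes Ptprc, Adgre1 and Itgam were at 2.30 to 2.58 in all arrays. The mean of the 7 was 4.92 to 5.15 in EA arrays and 4.30 to 4.66 in YF arrays. Cd68 was 10.8 to 11.3 in EA arrays and 7.57 to 8.49 in YF arrays, beside the higher Mmp9 and Adam8, and it was the one marker of the 7 that passed. Csf1r, also above 4 in all arrays, was 7.79 to 8.62 in EA arrays and 8.20 to 9.06 in YF arrays, a difference of -0.38 (SE 0.18, adjusted p = 0.307). The mean of 5 cartilage and bone markers was 4.81 to 5.06 in EA arrays and 5.85 to 6.08 in YF arrays. Col2a1 (-5.40) was lower in EA cells, where it was below 4, and Sox9 (0.46) was higher. Acan (-0.30) was also lower in EA cells, but it was in the low group in every array, at 2.39 to 2.87. Col10a1 and Sp7 did not pass, and Sp7 was low in every group. All 6 epithelial markers were low in every group, and so were 4 of 5 endothelial markers. The other one, Tek, was 8.03 to 8.27 in EA arrays and 9.42 to 10.05 in YF arrays, a difference of -1.58 (SE 0.16, adjusted p = 0.00263). The part of the fibroblast, smooth muscle, cartilage and bone, and mesothelial markers and of Cd68 and Tek in the family differences was not tested.

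Growth hormone for 120 minutes changed no member past the threshold in the fit of all 8 arrays. In EA cells 0 of 70 member probe sets passed in the limma fit, against 0.135% of all probe sets, and 13 had an unadjusted p under 0.05 (1 higher and 12 lower), against 5.62% of all probe sets. In YF cells 0 passed, against 0.18% of all, and 8 had an unadjusted p under 0.05 (5 higher and 3 lower), a share equal to the 11.4% of all probe sets. Averaged over the mutants 0 passed, against 0.211% of all, and 16 had an unadjusted p under 0.05, which compares with 7.85% of all probe sets. Leaving out the first YF_GH array left 0 passing in each of these comparisons. Leaving out the first EA array let a dim Timp4 probe set pass in EA cells, at -0.91, a value that rests on the remaining EA array. That probe set was 2.41 and 3.35 in EA and 2.45 and 2.42 in EA_GH, all in the low group. With 2 arrays per group, a miss does not show that a gene did not respond, so the leading values are given with their intervals.

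Of the 16 member probe sets with an unadjusted p under 0.05 in the averaged hormone comparison, 8 were among the 28 of the Adamts family. In all 8 the hormone arrays were lower on average. Some of the 8 share a gene, and by brightest probe set 5 of 15 Adamts genes had such a p, all lower. In either direction, 7.85% of all probe sets and 14.9% of those with a mean at or above 4 had such a p. The share of all probe sets that were lower at this p was not counted. Adamts5 differed by -0.32 (SE 0.05, adjusted p = 0.132), with a 95% interval of -0.44 to -0.20. The array values above, from its brightest probe set, were lower with hormone in both mutants. Another bright Adamts5 probe set was lower with hormone in EA cells only. Its means were 12.13 in YF and 12.24 in YF_GH. The remaining Adamts5 probe sets had lower means with hormone in both mutants. Adamts9 differed by -0.42 (SE 0.09, adjusted p = 0.257), Adamts4 by -0.24 (SE 0.06, adjusted p = 0.339) and Adamts1 by -0.30 (SE 0.08, adjusted p = 0.404). Adamts1 was the 1 member of 70 for which every hormone array was below every array without hormone, against a background of 0.546% of all probe sets with that pattern. Timp3 differed by -0.18 (SE 0.03, adjusted p = 0.149) on its brightest probe set, with both mutants lower. In EA cells its other probe sets were also lower with hormone. In YF and YF_GH they had means of 12.98 and 12.96, 11.83 and 11.78, and 9.97 and 10.12, so the last was higher with hormone.

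Among the Mmp genes, Mmp10, Mmp11 and Mmp14 had an unadjusted p under 0.05 in YF cells, and all 3 were higher with hormone. These are 3 of 18 genes, near the 14.1% of all genes with such a p in YF cells. Mmp11 was 12.01 in the first YF_GH array, which stood apart, and 11.65 in the other. Mmp14 differed in YF cells by 0.42 (SE 0.10, adjusted p = 0.248) and in EA cells by 0.10. Mmp10 differed in YF cells by 1.03 (SE 0.30, adjusted p = 0.322), from a side below 4, and in EA cells by 0.10. Without the first YF_GH array, the Mmp10 value in YF cells was 1.44 (adjusted p = 0.178). Mmp13 differed in EA cells by 1.23 (SE 0.58, adjusted p = 0.869), a wide spread between arrays that straddle the bound of 4, and in YF cells by -0.17. Mmp2 and Mmp9 differed by -0.12 and 0.41 in EA cells and by 0.19 and -0.49 in YF cells, none of which passed.

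**Figure D4:**
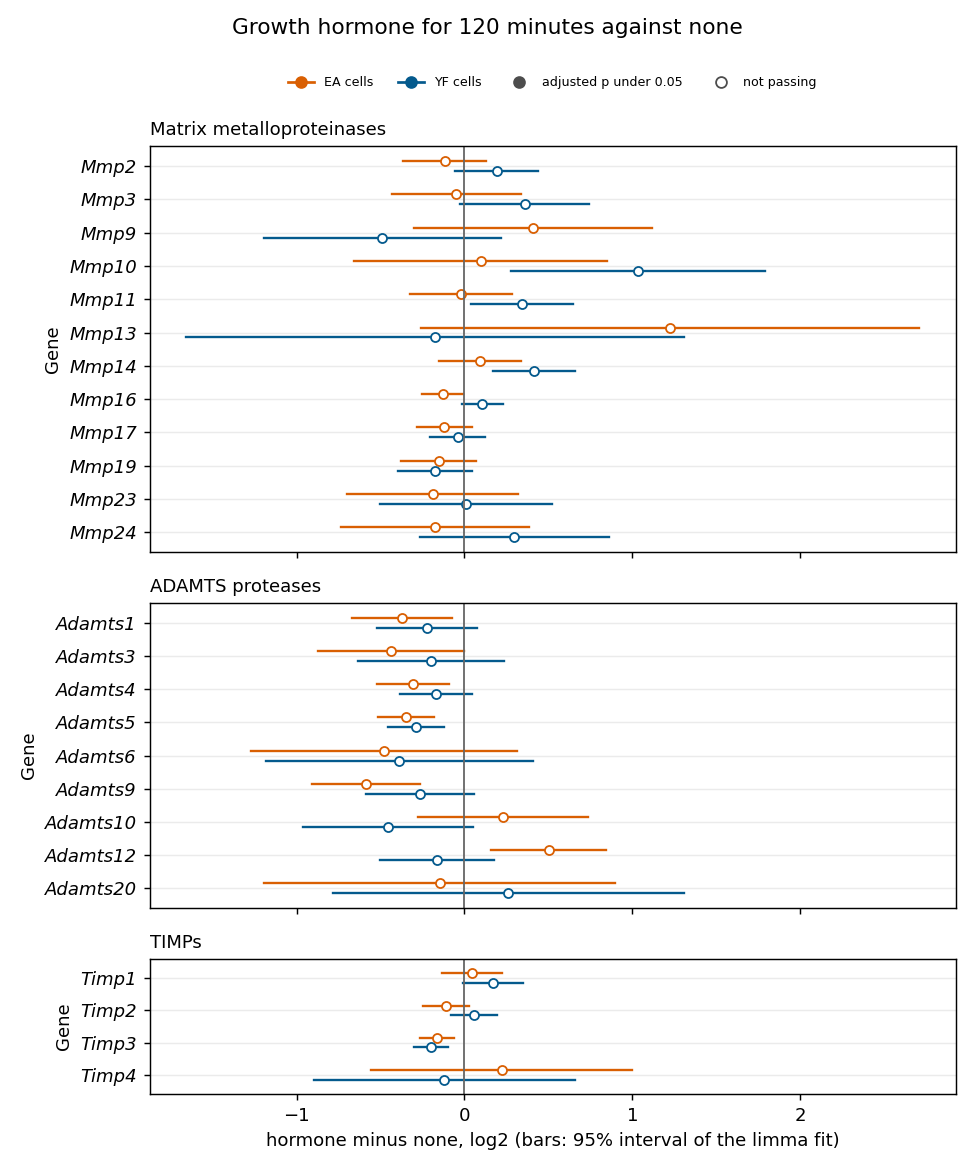
Difference of growth hormone for 120 minutes minus none (log2, horizontal axis) of the brightest probe set of each gene, in EA cells (orange) and YF cells (blue), with bars for the 95% interval of the limma fit and open points for an adjusted p of 0.05 or more. Every point is open, and the intervals of most genes include 0.

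The difference of the hormone responses, EA minus YF, also passed for 0 of 70 member probe sets, against 0.02% of all, and 5 had an unadjusted p under 0.05, which is below the 9.74% of all probe sets. Adamts12 had a difference of responses of 0.67 (SE 0.19, adjusted p = 0.444), from 0.50 in EA cells and -0.17 in YF cells. For Mmp16 it was -0.24 (SE 0.07, adjusted p = 0.446), from -0.13 and 0.11. Mmp13 and Mmp10, which passed between the mutants at 1 treatment and not at the other, had differences of responses of 1.40 (SE 0.83, adjusted p = 0.446) for Mmp13 and -0.94 (SE 0.42, adjusted p = 0.446) for Mmp10. Adamts10 also passed without hormone only, and Mmp3, Mmp19 and Timp2 with hormone only. No difference between the treatments is shown for any of these genes. The hormone comparisons and the mutant comparisons share arrays, so their values stand side by side and are not independent.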

How the data were processed

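The authors deposited 1 table of 8 arrays, with expression on the log2 scale for each probe set. RMA (robust multi-array averaging) and the scanner software GCOS are named, per the submitters' processing notes, with no settings. No further normalization was applied. RMA fits all arrays together and makes their distributions alike, so a shift common to most genes would not be seen. The 64 control probe sets were left out, and symbols came from the platform annotation. All 70 member probe sets matched the RefSeq table (GRCm38.p6) by gene identifier, with 0 symbols changed.

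Group means were fitted with limma 3.58.1 (lmFit and eBayes, R 4.3.3) in a model with 4 residual degrees of freedom, and 7 contrasts were tested, two-sided, with Benjamini-Hochberg adjustment over 45037 probe sets. The code was tested on simulated data. A p weighs a difference of group means against the spread between arrays of the same group, shared over the 4 groups and moderated by eBayes. Array values are given for every Timp gene, and for every Mmp or Adamts gene that reached a mean of 4 in any group or passed in any contrast. Of the partner list, the 5 largest rises and 5 largest falls are named, besides genes passing in a hormone contrast. The members and lists were chosen with earlier results of these data known. Alternatives were other normalizations, a filter on low values, other eBayes options, the treatment's own 4 arrays, other probe sets, arrays left out and the replicate number as a block. Same-numbered arrays were not shown to be pairs. Promoter sequences are RefSeq windows of 300 bases, and 14 member genes had no window in the table used. The number of arrays limits the precision.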

Additional observations from a re-analysis of the deposited data

How the results depend on the processing

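Counts of member probe sets passing between EA and YF kept within 1.5 times of the reported ones under quantile normalization, arrays centred on their median, a filter on means below 4, eBayes with trend and robust options, and the replicate block (18 without hormone, 22 with hormone and 28 averaged). The exception was the comparison with hormone in a fit of only the 4 arrays with hormone, where 15 passed in place of 24. With the EA numbers crossed in the block, an alternative chosen after seeing the data, the counts were 20, 26 and 34. Same-numbered arrays deviated together with correlations of -0.38 to 0.43 over the pairs of groups, so the numbers are not shown to pair the arrays. Leaving out 1 array at a time gave 12 to 21 without hormone, 13 to 25 with hormone (13 without the second EA_GH array) and 23 to 32 averaged. In the hormone comparisons it gave 0 for YF cells, for the average and for the difference of responses. For hormone in EA cells, only a dim Timp4 probe set came to pass, at -0.91 without the first EA array, a value that rests on the remaining EA array. For the list of 49 partner genes, where leaving out arrays was added after seeing the data, the ranges were 9 to 14 without hormone, 9 to 15 with hormone and 14 to 21 averaged, and 0 to 1 for hormone in YF cells (Adam15, 0.88, adjusted p = 0.0415, without the second YF_GH array). Under quantile normalization 1 partner gene passed for hormone averaged over mutants (Sdc4, 0.31, adjusted p = 0.0495). The cause of these changes was not tested, beyond fewer arrays in the fits that leave arrays out.

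A different probe set of the same gene turned the direction of 5 calls. It was 0.0292 for Adamts9 with hormone (adjusted p = 0.897), 0.038 for Adamts10 without hormone (0.99), 0.121 for Adamts12 with hormone (0.31), 0.0431 for Adamts12 averaged (0.692) and 0.035 for Timp2 averaged (0.729). In all but Timp2, the other probe set had a mean below 4. No other setting turned a call. Besides other probe sets, the calls lost in the most settings were Mmp16 with hormone in 12 of 14, Mmp19 with hormone in 10 of 14, Mmp3 with hormone in 8 of 14, Timp1 averaged in 7 of 13, Adamts5 without hormone in 7 of 14, Adamts4 averaged in 6 of 13 and Timp4 without hormone in 6 of 14. With 2 arrays per group and no detection calls, levels in the low group have no known scale and small hormone differences are not resolved.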
